A study of Mus musculus with 12 samples.

Results

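Messenger RNA of 10 genes of the glucocorticoid and metal response was followed in 12 mouse hearts. They are Nr3c1 and Nr3c2, the receptors for glucocorticoid and mineralocorticoid hormones; Hsd11b1, an enzyme that regenerates active glucocorticoid inside cells; Fkbp5, Tsc22d3, Sgk1 and Zbtb16, which glucocorticoids are known to induce; the metallothioneins Mt1 and Mt2; and Lcn2, a secreted iron-siderophore carrier. Members were all array probes whose gene name equals 1 of these 10 symbols, which gave 21 probes among 56605 on the array and 10 genes among 27499 named genes. Hearts came from male C57BL6/J mice aged 5 months, in 4 groups of 3. Group C received neither agent. Group D received streptozotocin, which kills the β-cells that make insulin, at a daily 50 mg/kg over 5 days, and counted as diabetic from a blood glucose of 17 mM. Group C+P received pargyline, an inhibitor of the monoamine oxidases, at 50 mg/kg per day for 12 weeks, and group D+P received streptozotocin and then pargyline. Streptozotocin diabetes comes from loss of β-cells through a toxin, so groups D and D+P share exposure to that toxin as well as high glucose. Each heart gave 1 array.

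Glucocorticoids enter cells by diffusion and bind the glucocorticoid receptor, which chaperones of the Hsp90 family hold ready in the cytoplasm. The bound receptor moves to the nucleus and attaches to response elements in DNA, and genes such as Fkbp5, Tsc22d3 and Sgk1 are used in many tissues as markers of that activity. Metallothioneins are small cysteine-rich proteins that bind zinc and copper, and their genes respond to metals through metal response elements bound by the factor Mtf1 and also to glucocorticoids. In the heart both receptors are present, and metallothioneins are known as scavengers of reactive oxygen species.

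The sequence just before the annotated gene starts is shown for the 3 genes in which a motif of the corresponding response was found by letter search, from RefSeq promoters of GRCm38.p6. A glucocorticoid response element was searched as AGAACA, any 3 bases and TGTTC, and a metal response element core as TGCACNC or TGCGCNC, both on either strand and within 250 bases before a start. Promoters were held for 8 of the 10 genes, 15 starts in all; entries for Zbtb16 and Nr3c1 were missing. The stretches printed are chr8:94178839-94179088 for Mt1, chr8:94172368-94172617 for Mt2 and chr10:21993640-21993889 for Sgk1, all read 5′ to 3′ on the plus strand, with the motif in capitals.
Mt1: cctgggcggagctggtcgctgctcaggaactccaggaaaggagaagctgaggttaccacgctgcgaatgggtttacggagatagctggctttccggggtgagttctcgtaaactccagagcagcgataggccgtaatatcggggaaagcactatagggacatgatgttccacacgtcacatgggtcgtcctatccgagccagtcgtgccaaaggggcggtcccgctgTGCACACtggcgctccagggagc
Mt2: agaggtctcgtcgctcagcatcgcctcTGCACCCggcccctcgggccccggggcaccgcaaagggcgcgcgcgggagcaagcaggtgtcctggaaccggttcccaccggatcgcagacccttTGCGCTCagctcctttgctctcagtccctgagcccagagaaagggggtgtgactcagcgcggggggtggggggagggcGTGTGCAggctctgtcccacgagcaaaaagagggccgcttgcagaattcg
Sgk1: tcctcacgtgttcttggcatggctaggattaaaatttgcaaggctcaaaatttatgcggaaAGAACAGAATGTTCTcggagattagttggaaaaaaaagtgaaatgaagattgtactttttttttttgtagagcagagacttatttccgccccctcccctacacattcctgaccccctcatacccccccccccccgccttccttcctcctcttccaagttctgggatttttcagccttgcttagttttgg
The capitals in Mt1 and Mt2 are metal response element cores, 1 before Mt1 and 3 before Mt2, of which 1 in Mt2 lies on the reverse strand. A further 2 cores for Mt1 and 1 for Mt2 lay past the printed stretch, within or reaching into the 50 bases after the annotated start, so the counts describe this window and not the whole promoter. Such a core occurred before 4 of the 15 starts, 1 each of Mt1, Mt2, Nr3c2 and Hsd11b1 (26.7%), near the 21.4% of all 32851 promoters searched over the same length; 3 or more cores occurred in 1.26%. The capitals in Sgk1 are a palindromic glucocorticoid response element, matched on both strands as 1 site, before 1 of its 6 annotated starts. Among all promoters, 10 held that element (0.0304%). These matches are letters in a window and no measurement of binding.

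Of 30859 probes tested, 17 belonged to these genes, and every gene had at least 1 tested probe. Testing required a signal flagged as positive and significant on 50% or more of each group's arrays. The other 4 probes, 1 each of Fkbp5, Tsc22d3, Sgk1 and Lcn2, were well above background on 2, 0, 1 and 0 of the 12 arrays. The brightest tested probe of each gene is called its main probe, and values are log2 signal after quantile normalisation, which can be compared between arrays for 1 probe but not between probes. C and D arrays lay on 1 slide and C+P and D+P arrays on another, so slide and pargyline cannot be told apart. Non-diabetic and diabetic samples lay on different rows of each slide, so slide row and diabetes cannot be told apart. Between 23556 and 29231 of 59305 spots were well above background. Repeated spots varied by a median of over 10% on 5 arrays (C replicate 1, C+P replicate 1, D replicate 1 and D+P replicates 1 and 3). The 8 cardiomyocyte markers, which include Myh6 and Tnnt2, were above background on 12 of 12 arrays. With whole tissue, fewer cells of a type and less RNA per cell cannot be told apart. Each mouse gave a separate array, and p-values measure the spread between mice and arrays together.

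None of the 10 genes passed the test with diabetes, with pargyline or in the interaction of both. Between D and C the main probes differed by -0.31 to 0.17 on the log2 scale, and between D+P and C+P by -0.38 to 0.31. In the average of both contrasts, 4 genes were higher and 6 lower, and their 95% intervals lay between -0.81 and 0.58, so that a doubling or halving lay outside the interval of each. The median size of the difference in D against C was 0.09 for the 10 genes and 0.25 for all tested probes. With pargyline these sizes were 0.18 and 0.22, and in the average 0.11 and 0.18. The values of the 10 genes come from the brightest probe of each, while all tested probes include dimmer and second probes. The sizes therefore do not compare like with like.

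The test was limma with Benjamini-Hochberg adjustment over all tested probes, at an adjusted p of 0.05. In D against C, 0 of 10 genes passed (background 0.00648% of probes) and 0 reached an unadjusted p of 0.05 (background 10.8%). In D+P against C+P the counts were 0 (0.0454%) and 0 (7.46%), and in the average 0 (0.107%) and 0 (11.4%). The smallest adjusted p among the members was 0.761, 0.684 and 0.628 in these 3 contrasts. By the methods' t-test, 0 members passed in any pairwise contrast after Benjamini-Hochberg or Bonferroni adjustment, and between D+P and C+P 1 gene had an unadjusted p under 0.05. The arrays are few, and 0.1 is the smallest two-sided p that an exact permutation test of 3 against 3 allows.

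**Figure D1:**
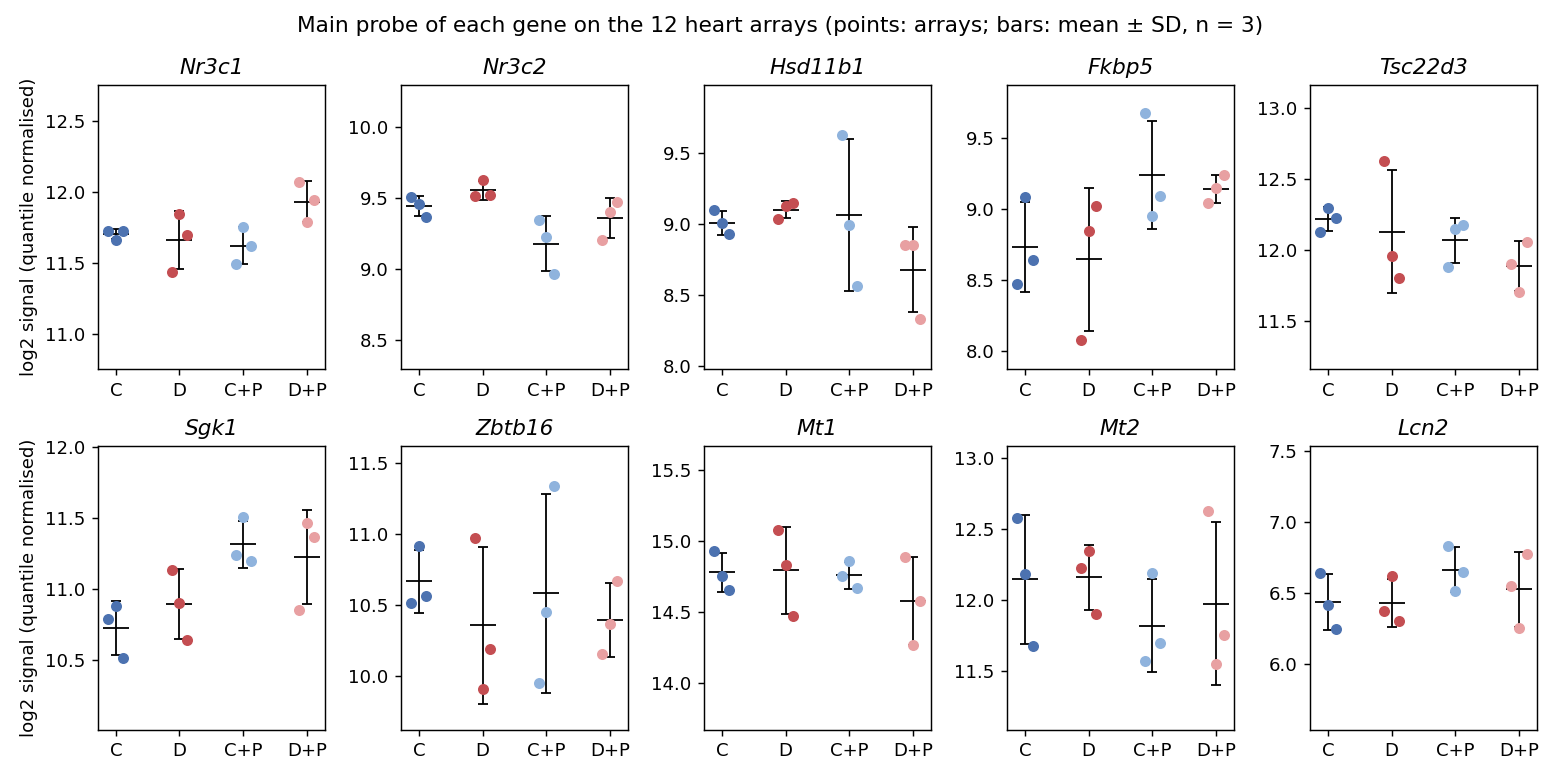
Log2 quantile-normalised signal of the main probe of each of the 10 genes (vertical axis, 2 log2 units in every panel) in the groups C, D, C+P and D+P; points are arrays and bars are the mean ± SD of 3 arrays. Nr3c1 and Nr3c2 cover a narrow range, while Zbtb16 in C+P runs from 9.95 to 11.34.

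The main probes of both receptors varied little from heart to heart. Nr3c1 encodes the glucocorticoid receptor and was measured on chromosome 18 (mm9). Its main probe gave 11.73, 11.66 and 11.73 in C, 11.44, 11.85 and 11.70 in D, 11.50, 11.75 and 11.62 in C+P, and 12.07, 11.79 and 11.95 in D+P. The 3 D+P arrays were higher than all C+P arrays, while D and C overlapped. The difference was -0.04 in D against C (95% interval -0.38 to 0.30) and 0.31 in D+P against C+P (-0.03 to 0.65; adjusted p = 0.684). A second Nr3c1 probe, also well above background on 12 arrays, gave 0.08 and 0.07 in the same contrasts. The pooled SD within groups of the main probe was at percentile 7.61 among tested probes.

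Nr3c2, the mineralocorticoid receptor, binds glucocorticoids as well as aldosterone. It was measured at chr8:79768704-79768763 (mm9). C hearts gave 9.51, 9.46 and 9.37, D hearts 9.51, 9.63 and 9.52, C+P hearts 9.35, 9.23 and 8.97, and D+P hearts 9.21, 9.40 and 9.48. All D values lay above all C values by a narrow margin, and each pargyline group lay below the group without pargyline on the other slide. The difference was 0.11 in D against C (-0.22 to 0.44) and 0.18 in D+P against C+P (-0.15 to 0.51). Between C+P and C it was -0.26 (adjusted p = 1), and between D+P and D -0.19 (adjusted p = 0.583). Of the other 2 Nr3c2 probes, 1 was well above background on 12 arrays and gave -0.28 in D against C, the opposite sign to the main probe, and ran from 6.08 to 7.48 (SD at percentile 66.4); 1 was well above background on only 2 arrays (percentile 99.4). Nr3c2 was the only member whose groups did not overlap in D against C, 1 of 10 genes, where 22.3% of all tested probes did not overlap.

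Hsd11b1 regenerates corticosterone, the main glucocorticoid of the mouse, from its inactive form. Its only probe lay at chr1:195048169-195048228 (mm9). It gave 9.09, 9.004 and 8.93 in C, 9.03, 9.12 and 9.15 in D, 9.63, 8.99 and 8.56 in C+P, and 8.85, 8.85 and 8.33 in D+P. The C and D hearts were close together, the C+P hearts spread over more than 1 log2 unit, and the D+P hearts all lay below the D hearts. The difference was 0.09 (-0.46 to 0.64) in D against C and -0.38 (-0.94 to 0.17) in D+P against C+P. Between D+P and D it was -0.42 (-0.98 to 0.13; adjusted p = 0.474). With other processing or with arrays left out, the value in D+P against C+P ran from -0.63 to 0.07.

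The genes around the receptor behaved as follows. Of 14 chaperones and cofactors of the receptor, 14 were tested and 0 passed in any contrast. In diabetes averaged over pargyline, 12 were lower and 2 higher, with a median of -0.15 against -0.01 over all tested probes, and 3 had an unadjusted p under 0.05 (background 11.4%). Fkbp4, a co-chaperone that favours receptor activity, had the largest fall in value, at -0.63 ± 0.18 (SE; adjusted p = 0.243). It ranged from 13.30 to 13.33 in C, 11.95 to 12.89 in D, 13.32 to 13.73 in C+P and 12.65 to 13.16 in D+P, so that diabetic hearts lay below the non-diabetic hearts of the same slide. Ncoa1, a coactivator, had the largest rise, at 0.07 ± 0.11. Of 7 genes of glucocorticoid metabolism and access, 4 were tested. Hsd11b2, which inactivates corticosterone, was well above background on 0 arrays, as was Serpina6, the plasma carrier. Of the 4 tested, 0 passed in any contrast; Srd5a1 had the highest value in diabetes averaged over pargyline (0.28 ± 0.27; well above background on 7 arrays) and Abcb1a, an efflux pump, the lowest (0.06).

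**Figure D2:**
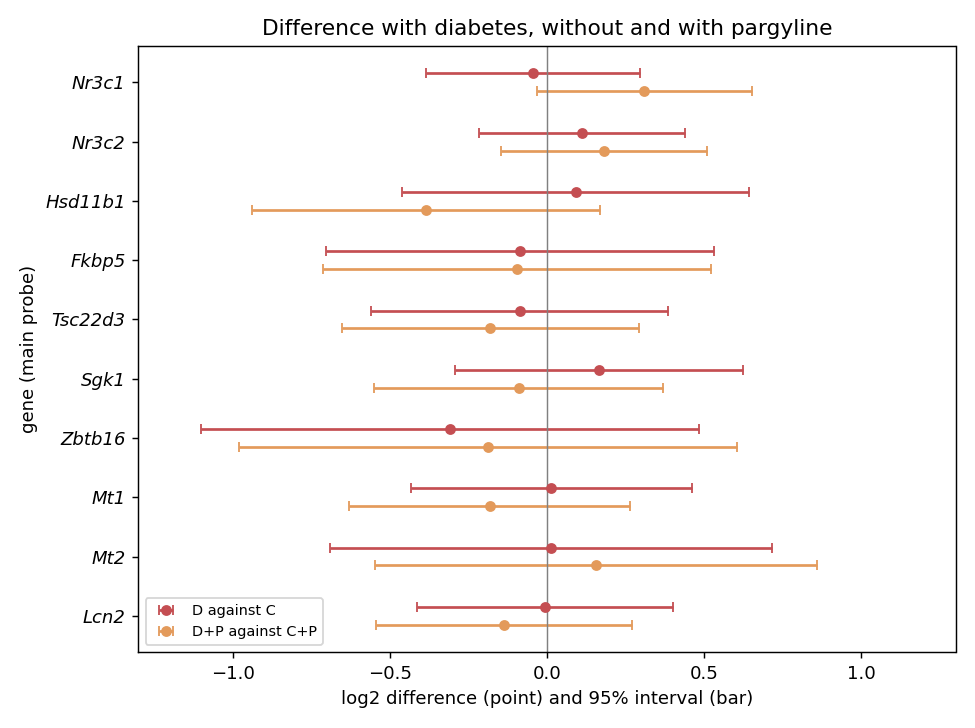
Log2 difference with diabetes for the main probe of each gene (horizontal axis; vertical axis, gene), without pargyline (D against C) and with it (D+P against C+P); bars are 95% intervals from the limma fit over 12 arrays. Every interval includes 0, and the interval of Nr3c1 with pargyline, -0.03 to 0.65, comes closest to leaving it out.

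Fkbp5, Tsc22d3, Sgk1 and Zbtb16 were all lower in value in D+P than in C+P, by differences of -0.09 to -0.19, and all but Sgk1 were lower in D than in C; none passed the test. Fkbp5 encodes a co-chaperone that restrains the receptor and is itself induced by it. Its main probe, at chr17:28536060-28536119 (mm9), gave 8.47, 9.09 and 8.65 in C, 8.08, 8.85 and 9.03 in D, 9.68, 8.95 and 9.10 in C+P, and 9.05, 9.15 and 9.24 in D+P. D replicate 1 lay below every C heart, and the other D hearts lay within the range of C. The difference was -0.09 (-0.70 to 0.53) in D against C and -0.10 (-0.71 to 0.52) in D+P against C+P. A second probe, dimmer and well above background on 11 arrays, gave -0.16 and 0.24, with an SD at percentile 92.7 among tested probes. The lowest main-probe value, 8.08, came from D replicate 1, an array with variable repeated spots.

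Tsc22d3 encodes GILZ, a leucine zipper protein that mediates anti-inflammatory effects of glucocorticoids. Its main probe, at chrX:137074094-137074153 (mm9), gave 12.13, 12.29 and 12.22 in C, 12.62, 11.96 and 11.80 in D, 11.88, 12.14 and 12.17 in C+P, and 11.90, 11.70 and 12.05 in D+P. The D group held both the highest heart and, apart from D+P replicate 2, the lowest. The difference was -0.09 (-0.56 to 0.39) in D against C, -0.18 (-0.65 to 0.29) in D+P against C+P and -0.13 (-0.47 to 0.20) in the average. A second probe of the same gene, at chrX:137074801-137074860, gave 0.35 and 0.32 in the pairwise contrasts and 0.33 in the average (0.01 to 0.66; unadjusted p = 0.0438, adjusted p = 0.421). The 2 probes thus differed in sign, with 12 of 12 arrays well above background for each.

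Sgk1 encodes a kinase that raises sodium transport and is induced by both corticosteroid receptors, and 1 of its starts carries the response element printed above. Its main probe lay at chr10:21719390-21719449 (mm9). C hearts gave 10.79, 10.88 and 10.51, D hearts 11.13, 10.90 and 10.64, C+P hearts 11.24, 11.50 and 11.20, and D+P hearts 10.85, 11.46 and 11.36. C and D overlapped, as did C+P and D+P, while all C+P hearts lay above all C hearts. The difference with diabetes was 0.17 (-0.29 to 0.62) without pargyline and -0.09 (-0.55 to 0.37) with it. The other Sgk1 probe, for another transcript, was well above background on 1 array.

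Zbtb16, or PLZF, a zinc finger repressor, varied most among the 10 main probes, with an SD at percentile 70.5. Its main probe, at chr9:48462419-48462478 (mm9), gave 10.51, 10.92 and 10.56 in C, 10.97, 9.90 and 10.19 in D, 9.95, 10.45 and 11.34 in C+P, and 10.15, 10.36 and 10.67 in D+P. All 4 groups overlapped. The difference was -0.31 (-1.10 to 0.48) in D against C and -0.19 (-0.98 to 0.60) in D+P against C+P. A second probe gave -0.25 and -0.06. With other processing or with arrays left out, the main probe ran from -0.69 to -0.08 in D against C and from -0.53 to 0.19 in D+P against C+P.

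Among other glucocorticoid target genes, Angptl4 was the only call. Of 30 such genes 29 were tested, and in diabetes averaged over pargyline 1 rose past the threshold (background 0.107% of probes), 5 higher and 6 lower genes had an unadjusted p under 0.05 (background 11.4%), 17 were higher and 12 lower in value, with a median of 0.06 against -0.01 over all tested probes. In D+P against C+P, 3 higher and 7 lower genes had an unadjusted p under 0.05 (background 7.46%), and in D against C 3 higher and 1 lower (background 10.8%). Angptl4, a secreted inhibitor of lipoprotein lipase that fatty acids also induce through PPAR receptors, gave 9.04 to 9.94 in C, 11.48 to 11.62 in D, 7.97 to 9.63 in C+P and 11.48 to 12.40 in D+P. Diabetic hearts lay above all non-diabetic hearts. It rose by 2.82 ± 0.30 (SE) in the average (adjusted p = 0.0126) and by 3.47 ± 0.43 in D+P against C+P (adjusted p = 0.0254), while in D against C the difference was 2.18 ± 0.43 (adjusted p = 0.216). The call in the average passed in 8 of 12 fits that each left out 1 array, with an adjusted p of up to 0.0695 without C replicate 1, C replicate 3, D+P replicate 2 or D+P replicate 3, and that in D+P against C+P passed in 4 of 12. Mertk, a receptor for apoptotic cells that macrophages carry, had the largest fall in value, at -0.71 ± 0.19 (adjusted p = 0.228; well above background on 9 arrays). Macrophage markers were lower in value beside it: 9 of 9 in the average, 7 with an unadjusted p under 0.05 (background 11.4%) and 0 past the threshold. Their summed level ran from 14.18 to 14.42 in C, 13.82 to 14.18 in D, 14.20 to 14.86 in C+P and 13.84 to 13.97 in D+P, and 9 of 9 were well above background on every array. Their part in the Mertk value was not tested. Among the 8 tested genes of sodium transport, 0 passed in any contrast; Scnn1a, an epithelial sodium channel subunit, was highest in the average at 0.28 ± 0.15. Of 15 clock genes, several of which glucocorticoids reset, 14 were tested and 0 passed; Per2 was highest in the average at 0.37 and Nfil3 lowest at -0.41.

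**Figure D3:**
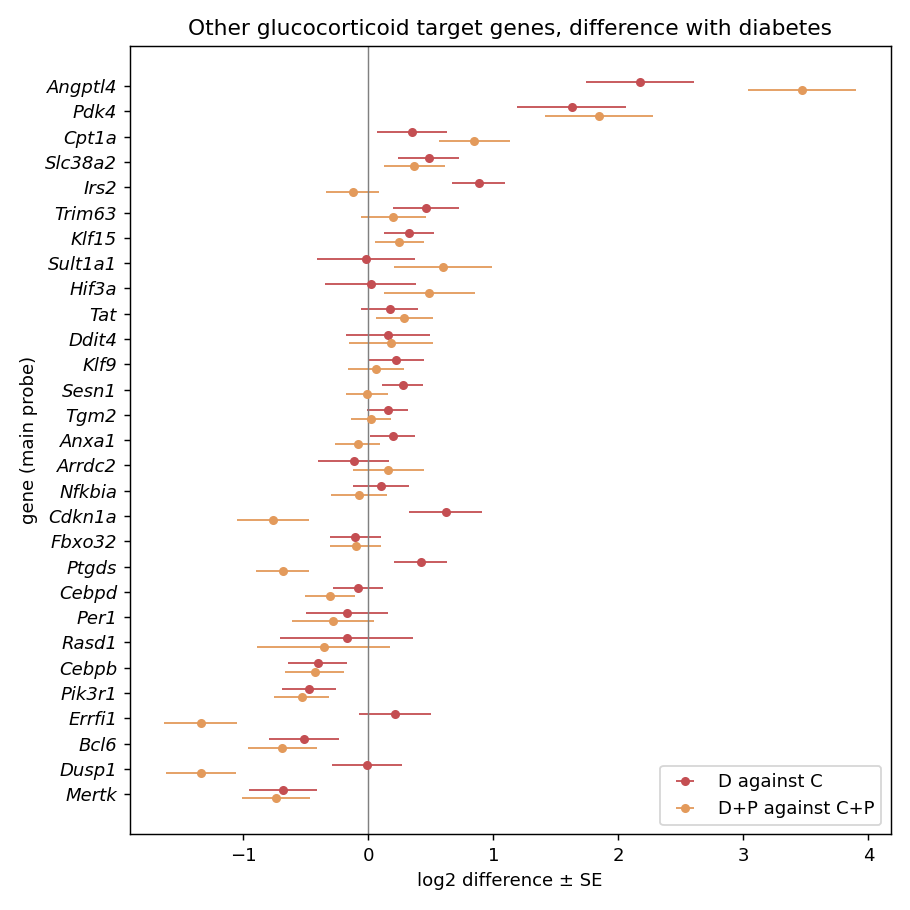
Log2 difference with diabetes (horizontal axis, points with SE) for the 29 tested genes of the wider glucocorticoid target list (vertical axis, ordered by the average of both contrasts), without and with pargyline. Angptl4 stands at the top with 2.18 and 3.47, and Mertk at the bottom with -0.68 and -0.74.

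The main probes of both metallothioneins were bright in every heart, and their differences between groups lay within the spread. Mt1 was measured at chr8:96704165-96704224 (mm9). C hearts gave 14.93, 14.75 and 14.66, D hearts 15.08, 14.83 and 14.47, C+P hearts 14.75, 14.86 and 14.67, and D+P hearts 14.89, 14.27 and 14.58. The groups overlapped in every pairwise contrast. The difference was 0.01 (-0.43 to 0.46) in D against C and -0.18 (-0.63 to 0.27) in D+P against C+P. A dimmer Mt1 probe, for a predicted transcript, gave -0.48 and 0.76 in the same contrasts, with an SD at percentile 87.2; its D+P hearts (6.65 to 7.61) lay above all C+P hearts (6.25 to 6.49).

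Mt2 was measured by 1 probe at chr8:96697371-96697430 (mm9), on the same strand and chromosome as Mt1. It gave 12.58, 12.18 and 11.67 in C, 12.23, 12.35 and 11.90 in D, 11.57, 12.19 and 11.70 in C+P, and 12.63, 11.55 and 11.75 in D+P. Hearts of each group spread over up to 1.08 log2 units, more than any difference between group means. The difference was 0.01 (-0.69 to 0.72) in D against C and 0.16 (-0.55 to 0.86) in D+P against C+P.

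Hearts with more Mt1 tended to have more Mt2, a relation that did not pass the adjustment over all pairs of members. Over the 12 arrays Pearson's r was 0.718 (permutation p = 0.00723, adjusted 0.208 over 45 pairs of members) and Spearman's rho 0.769 (permutation p = 0.00532, adjusted 0.12). Without the 2 arrays farthest from the median of Mt1 (D+P replicate 2 and D replicate 1), r was 0.728. Within the slide of C and D it was 0.682, within the slide of C+P and D+P 0.702, and after removal of group means 0.793. The longest run of bases shared by the 2 probes, each of 60 bases, was 7. Tsc22d3 and Zbtb16 gave r = 0.686 (permutation p = 0.0132, adjusted 0.208) and rho = 0.769 (adjusted 0.12), with 0.754 without the 2 farthest arrays and 0.868 and 0.65 within the slides. Fkbp5 and Tsc22d3 ran in opposite directions, with r = -0.677 (permutation p = 0.0185, adjusted 0.208) and rho = -0.49 (adjusted 0.59), but r was -0.312 without the 2 farthest arrays. Tsc22d3 and Mt1 gave r = 0.667 (permutation p = 0.0183, adjusted 0.208) and rho = 0.427 (adjusted 0.59), with 0.18 without the 2 farthest arrays (D replicate 1 and D+P replicate 2). Without the 5 arrays with variable repeated spots the values were -0.328 and 0.735, so the second weakened under the one omission and not under the other. None of the 45 pairs passed the adjustment.

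**Figure D4:**
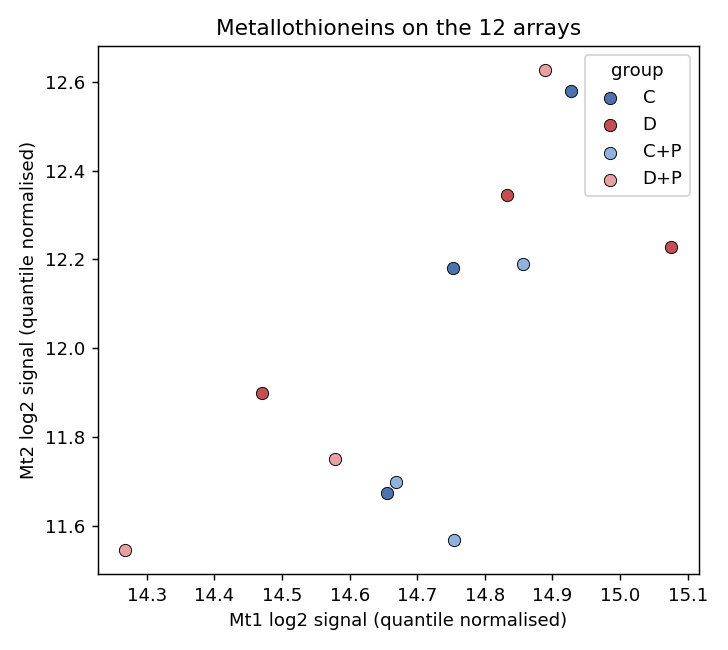
Log2 signal of Mt1 (horizontal axis) against Mt2 (vertical axis) on the 12 arrays, 1 point per heart, coloured by group. The 4 groups are mixed along the slope, with D+P replicate 2 lowest at 14.27 and 11.55.

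Of 16 other genes of metallothionein and of zinc or copper handling, 16 were tested and 0 passed in any contrast. In diabetes averaged over pargyline 7 were higher and 9 lower, with a median of -0.07. Mt3 gave group means of 6.82 ± 0.18 in C, 6.62 ± 0.36 in D, 7.08 ± 0.16 in C+P and 6.95 ± 0.12 in D+P (SD, n = 3). Mtf1, the factor that binds metal response elements, gave 9.87 ± 0.10, 9.87 ± 0.36, 9.73 ± 0.44 and 9.51 ± 0.18 in the same order. For Mt4, which had the largest rise in value, the probe was well above background on 0 arrays, so no size is given. The largest fall in value was in Slc39a14, a zinc and iron importer, at -0.37 ± 0.14 (SE; unadjusted p = 0.0263, adjusted p = 0.382).

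Lcn2 was dim in these hearts. It encodes lipocalin 2, an acute phase protein made by neutrophils and many injured tissues. Its tested probe, at chr2:32240199-32240258 (mm9), was well above background on 11 arrays and gave 6.65, 6.42 and 6.25 in C, 6.37, 6.62 and 6.30 in D, 6.83, 6.52 and 6.65 in C+P, and 6.55, 6.26 and 6.78 in D+P. All groups overlapped, and the difference was -0.01 (-0.41 to 0.40) in D against C and -0.14 (-0.55 to 0.27) in D+P against C+P. Its other probe was well above background on 0 arrays. Slc22a17, the lipocalin 2 receptor, gave -0.08 ± 0.20 and 0.37 ± 0.20 (SE) in these contrasts. Of 13 genes of the acute phase and innate defence, 9 were tested and 0 passed in any contrast; Saa1 was highest in the average (0.30 ± 0.16), and no size is given for Serpina3n, the lowest, since it was well above background on 0 arrays. In D+P against C+P, 6 of 9 were lower and 3 had an unadjusted p under 0.05 (background 7.46%). In C+P against C, 8 were higher and 2 had such a p (background 4.43%), and in D against C 0 did (background 10.8%).

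Neutrophil markers were partly detected. Of 12, 7 were tested, and Ngp, Ltf, Mmp8, Mmp9 and Cxcr2 were well above background on 0 arrays. The mean log2 signal of the 7, in which each probe counts alike, ran from 7.65 to 8.05 in C, 8.03 to 8.09 in D, 8.39 to 8.97 in C+P and 7.62 to 8.02 in D+P. The summed level, which follows bright probes, gave another order, with 15.32 to 15.45 in C, 14.44 to 15.20 in D, 15.07 to 15.63 in C+P and 15.24 to 15.56 in D+P. In C+P against C, 7 of 7 were higher in value and 3 had an unadjusted p under 0.05 (background 4.43%). The middle value there was that of Camp, well above background on 1 array, so no size is given. Csf3r and Elane, well above background on 12 arrays, had means of 15.335 and 9.44 in C and 15.342 and 9.48 in C+P. In D+P against C+P, 6 of 7 were lower and 4 had an unadjusted p under 0.05 (background 7.46%). In D against C, 5 of 7 were higher and 2 lower. Of these, 2 higher and 1 lower had an unadjusted p under 0.05 (background 10.8%). The largest fall there was that of Csf3r, at -0.63. Of the 7, 0 passed the threshold in any contrast. S100a8 ran from 4.65 to 6.26 in C and from 6.82 to 8.62 in C+P, and S100a9 from 6.99 to 8.49 and from 8.77 to 10.46. The difference of S100a9 in C+P against C was 1.96 ± 0.45 (SE; adjusted p = 0.53), beside 0.23 (-0.18 to 0.63) for Lcn2. Their part in the Lcn2 value was not tested.

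With pargyline, Sgk1 and Fkbp5 gave the largest positive differences of the 10 genes. In C+P against C, Sgk1 differed by 0.59 (0.13 to 1.05; unadjusted p = 0.0168, adjusted p = 1) and Fkbp5 by 0.51 (-0.11 to 1.12; adjusted p = 1). In D+P against D the same genes differed by 0.33 (-0.13 to 0.79; adjusted p = 0.5) and 0.50 (-0.12 to 1.11; adjusted p = 0.455). Sgk1 was higher in 3 of 3 C+P hearts than in any C heart, and Fkbp5 was higher in 3 of 3 D+P hearts than in any D heart, by 9.05 against 9.03 at the nearest. The Fkbp5 value in C+P against C was 0.29 without C+P replicate 1 and 0.16 without the 5 arrays with variable repeated spots, below the 0.25 of Lcn2 there, and in D+P against D it was 0.21 without D replicate 1. The Sgk1 value in D+P against D ran from 0.21 to 0.52 when 1 array was left out, lowest without D replicate 3 or D+P replicate 2 and highest without D+P replicate 1. It was 0.69 without the 5 arrays with variable repeated spots, where D+P replicate 2 alone was left of its group. The order in D+P against D changed with 1 array: Zbtb16 was at 0.35 without D replicate 1, above Fkbp5, and Nr3c1 was above Sgk1 without D replicate 2 (0.37), D replicate 3 (0.29), D+P replicate 2 (0.35) or D+P replicate 3 (0.27). Zbtb16, with differences of -0.08 and 0.04, Tsc22d3, with -0.15 and -0.24, and both metallothioneins, with -0.02 and -0.21 for Mt1 and -0.33 and -0.18 for Mt2, had intervals across 0.

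In C+P against C, 0 of 10 genes passed (background 0.0324%) and 1, Sgk1, had an unadjusted p under 0.05 (background 4.43%), also by the methods' t-test. In D+P against D, 0 passed (background 0%) and 0 had an unadjusted p under 0.05 (background 13.3%). The groups did not overlap for 2 of 10 genes between C+P and C (Sgk1 and Nr3c2; background 15.4%) and for 3 of 10 between D+P and D (Fkbp5, Nr3c2 and Hsd11b1; background 17%). With diabetes under pargyline, D+P against C+P, they did not overlap for 1 of 10 (Nr3c1; background 13.9%). The unadjusted Sgk1 value was 0.0691 without C replicate 3 and 0.0653 without C+P replicate 2.

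Immediate early genes moved on the same slide and in the same contrast as Sgk1. Of 18 tested, 6 rose past the threshold in C+P against C (background 0.0324%), and the median difference was 1.59 against -0.01 over all tested probes. Egr1 rose by 3.82 ± 0.27 (SE; adjusted p = 0.000797), and Nr4a1, Ier2, Fos, Egr2 and Fosb also rose. Fos, Egr2 and Fosb were well above background on only 4, 3 and 5 of the 12 arrays, so no size is given for them, and with normexp background Egr2 did not pass (adjusted p = 0.109). With other processing or with arrays left out, their calls in C+P against C passed in 16, 8 and 8 of 24 alternatives. The summed level of the 18 genes ran from 13.64 to 13.78 in C, 14.86 to 15.35 in C+P, 13.56 to 13.75 in D and 13.39 to 13.85 in D+P. In the wider glucocorticoid target list 14 genes were higher and 15 lower in value in C+P against C, with a median of -0.05, and the lowest was Angptl4 at -0.82 (adjusted p = 1). In that contrast 5 of its 29 genes had an unadjusted p under 0.05, all of them higher (background 4.43% in either direction). Some of its genes were higher in value without passing: Errfi1 by 1.44, Cdkn1a by 1.39, Dusp1 by 1.10 and Irs2 by 1.01 (adjusted p = 0.349, 0.383, 0.712 and 0.383), genes chosen after their values were seen. Hsp90aa1, the inducible Hsp90, was 12.85 to 13.04 in C+P and 11.21 to 12.40 in C. The part of these genes' shared shift in the Sgk1 value was not tested. The calls of Egr1, Ier2 and Nr4a1 in C+P against C passed in 12 of 12 fits that left out 1 array, that of Fos in 8, and those of Egr2 and Fosb in 2 each. In D against C, 0 of the 18 passed by limma (background 0.00648%), 3 had an unadjusted p under 0.05 (background 10.8%), 7 were higher and 11 lower in value, and the median was -0.04. In D+P against C+P, 6 fell (background 0.0454%), of which the calls of Egr1, Ier2 and Nr4a1 passed in 12 of 12 fits that left out 1 array, that of Fos in 7 and those of Egr2 and Fosb in 3 each. The C+P group, high for these genes, enters that contrast and the average, and in diabetes averaged over pargyline 5 fell (background 0.107%), among them Btg2, which fell by 1.02 on the log2 scale, and Egr1, which fell by 2.24. Myc, the gene with the largest rise in value there, was well above background on 3 arrays, so no size is given. Of the 5 that fell, the calls of Egr1 and Ier2 passed in 12 of 12 such fits, and those of Nr4a1, Fos and Btg2 in 4, 3 and 1. Without pargyline, Nr4a1 went the other way, with a mean of 8.45 in C and 8.90 in D, and Egr1 had 8.08 and 7.65. In a fit of diabetes with slide as a block and no interaction, none of these 5 calls passed (adjusted p = 0.203 for Egr1, 0.143 for Ier2, 0.396 for Nr4a1, 0.209 for Fos and 0.122 for Btg2), while that of Angptl4 did (adjusted p = 0.0318). A fit without interaction counts the difference between the 2 diabetes contrasts as spread, so it cannot show what slide adds to these calls.

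**Figure D5:**
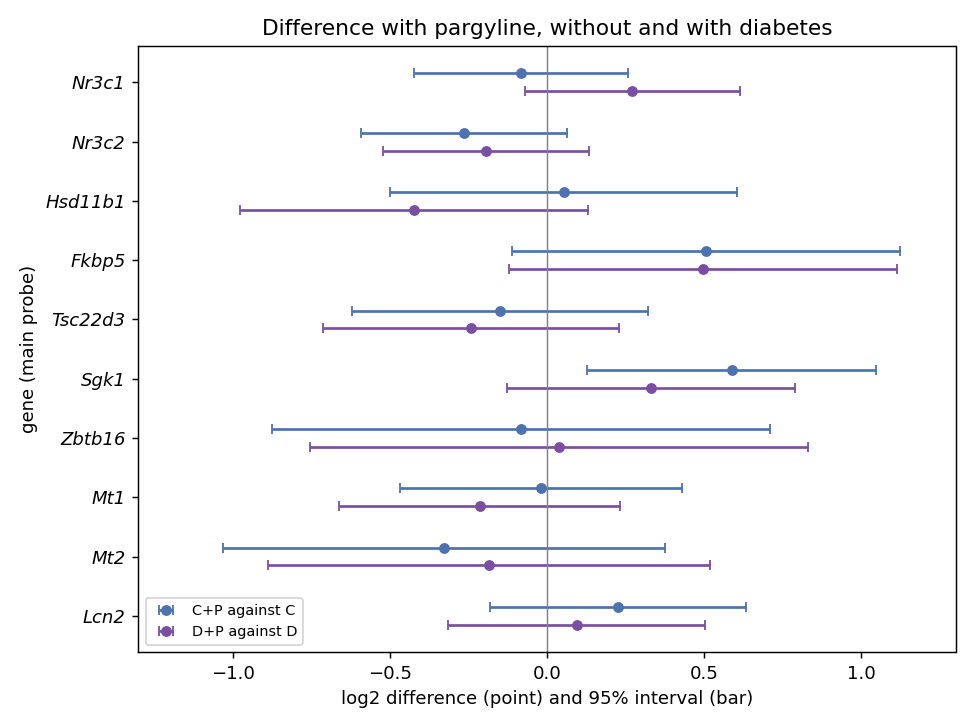
Log2 difference with pargyline for the main probe of each gene (horizontal axis; vertical axis, gene), without diabetes (C+P against C) and with it (D+P against D); bars are 95% intervals from the limma fit. The interval of Sgk1 without diabetes, 0.13 to 1.05, is the only one that leaves out 0.

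Whether pargyline altered the difference with diabetes was asked by the interaction. No member passed (0 of 10, background 0.00648%), and 0 had an unadjusted p under 0.05 (background 7.03%). The values ran from -0.48 for Hsd11b1 (-1.26 to 0.31) to 0.35 for Nr3c1 (-0.13 to 0.84), with a smallest adjusted p of 0.755. The Hsd11b1 value was -0.19 without C+P replicate 1, -0.30 without D+P replicate 3 and -0.73 without C+P replicate 3, an array without which Zbtb16 had the highest value, 0.50. Nr3c1 gave 0.02 without the 5 arrays with variable repeated spots and 0.15 with 75th percentile scaling. The median size was 0.14 for the main probes of the members and 0.31 for all tested probes, dimmer and second probes included. In the wider lists 2 immediate early genes, Egr1 and Nr4a1, passed, at -3.62 and -4.07 (adjusted p = 0.0221 for each). These 2 calls passed in 1 and 2 of 12 fits that left out 1 array, with an adjusted p of up to 0.135. With replicate number or slide column as a block, 0 probes passed in the interaction.

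For each main probe the genes with the most similar profile over the 12 arrays were sought among 16653 named genes, as a description that includes slide and array quality. Pearson's r was highest with Mepce for Nr3c1 (0.929), Psmd5 for Nr3c2 (0.939), C330018D20Rik for Hsd11b1 (0.946), Ttc1 for Fkbp5 (0.897) and Amd2 for Tsc22d3 (0.923). It was highest with Snhg16 for Sgk1 (0.914), Fmn2 for Zbtb16 (0.869), Accs for Mt1 (0.978), Chac1 for Mt2 (0.915) and 4931428F04Rik for Lcn2 (0.888). Tat, a liver enzyme gene induced by glucocorticoids, came second for Nr3c2, with r = 0.932 and rho = 0.902. The group means of both were lower on the pargyline slide. For Nr3c2, C+P did not overlap with C, nor D+P with D. For Tat these groups overlapped, at 7.15 to 7.24 in C, 7.29 to 7.42 in D, 6.39 to 7.21 in C+P and 6.73 to 7.41 in D+P. No member appeared among the 3 most similar genes of another member.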

How the data were processed

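Total RNA of 12 hearts was labelled with Cy3 (200 ng per heart) and hybridised to 1-colour Agilent mouse arrays, 1 per mouse. The authors deposited scanner files with spot intensity on a linear scale, background subtracted and detrended by Feature Extraction (12.0.0.7 in the headers; the methods name another version), and a series table of intensity that they had quantile normalised, not log transformed. Samples were grouped by their labels.

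Intensities were log2 transformed and quantile normalised; the deposited values were not in log2. Control spots were left out, outlier spots set to missing and repeated spots averaged. Contrasts were fitted with limma 3.58.1 in R 4.3.3 (1 mean per group, 12 arrays, 8 residual and 2.62 prior degrees of freedom; package data.table, version 1.17.8), two-sided, with Benjamini-Hochberg adjustment over 30859 probes; the script was tested on simulated data. Pairs of members were tested with 100000 permutations. A member is called by its brightest tested probe. From the wider gene lists (cell type markers apart), genes past the threshold in any contrast and the largest rise and fall in diabetes averaged over pargyline are named; others named are background to these or described as chosen later. A gene that this rule names is not reported here. The members and lists were chosen with earlier results of these data known. Probe positions are mm9, as in the files; RefSeq (GRCm38.p6) gave names for 20774 tested probes, and promoters. Promoters were searched and figures drawn in Python (3.11.15) with the packages matplotlib (3.10.9), numpy (2.4.6) and pandas (2.3.3). Alternatives comprised 75th percentile scaling, normexp background, other filters, the authors' series table, array weights, the methods' t-test, blocks for replicate number, slide and slide column, only the groups compared, and leaving out each array. Leaving out the 5 arrays with variable repeated spots was added after seeing the data. The number of arrays limits the precision.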

Additional observations from a re-analysis of the deposited data

How the results depend on the processing

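The count of 0 members past the threshold held in every contrast and alternative run, and 0 of 1470 values of a member in a contrast passed, while 106 of them changed sign, in 34 of 60 pairs of a member and a contrast; no scaling moved the median of all probes by as much as 0.1. In diabetes averaged over pargyline, Fkbp5 became 0.053 with array weights and 0.10 without the 5 noisy arrays, Sgk1 -0.073 with normexp background, Mt2 -0.13 with normexp background, -0.036 with array weights and -0.10 without the noisy arrays, Hsd11b1 0.12 and Per2 -0.16 without the noisy arrays, Lcn2 0.0037 with array weights, Abcb1a -0.0064 with the slide column as a block, and Ncoa1 -0.040 without the noisy arrays; the cause was not tested. Leaving out 1 array at a time gave -0.18 to 0.052 for Fkbp5, -0.023 to 0.13 for Sgk1, -0.078 to 0.19 for Mt2 and -0.011 to 0.13 for Ncoa1. Calls in the wider lists over all contrasts numbered 21, against 45 with array weights, 4 with only the groups compared, 12 with the slide column as a block, and 0 by the methods' t-test or without the noisy arrays (7 arrays left); leaving out 1 array at a time gave 10 to 25. With a replicate block they numbered 14. Same-numbered arrays did not deviate together (mean correlation 0.0145 over 18 pairs, -0.204 to 0.2, and 5 of 12 arrays closest to their own number), so the numbers name samples only, and the block changed no call of a member. The signal over background limits Lcn2 and the second probes of Fkbp5, Mt1 and Nr3c2.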
